A study of Mus musculus with 8 samples.

Results

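The genes described here are named for the proteins of the cytosolic ribosome, the family that includes Rpl10a, the protein carrying the purification tag in these mice. They were chosen by symbol alone: Rpl or Rps and a number, with or without the endings a, l, x or al, plus Rplp0 to Rplp2 and Rpsa. The rule took 82 of the 32531 genes in the count tables, 50 of the large (60S) subunit and 32 of the small (40S) subunit. Among the 32 is Rps4l, annotated as a transcribed processed pseudogene, which stays in all counts below. Of these 82 genes, 77 passed the filter on low counts and were tested among 12467 genes. All libraries came from untreated Drd1-EGFP/Rpl10a (CP73) mice aged to over 20 months. Ribosome-bound RNA was pulled down with antibodies to EGFP from dissected dorsal striatum (4 libraries) or accumbens (4 libraries). All groups carry the transgene, in which regulatory sequence of the dopamine D1 receptor gene drives L10a fused to EGFP, and the labels do not say whether a replicate is 1 animal or a pool. P-values therefore measure the spread between these libraries, which may be technical. No wild-type, younger or unpurified samples were analysed here.

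Each ribosome pairs a small subunit, which decodes the message, with a large subunit, which forms the peptide bonds and lets the new protein out through a tunnel. The ribosomal proteins are needed in matching amounts, and many of their messages start with a C followed by a run of pyrimidines, the 5′ terminal oligopyrimidine (TOP) motif, through which growth signalling by mTOR sets their translation. In translating ribosome affinity purification, tagged L10a is built into ribosomes of the marked cells, so that messages on those ribosomes, including the messages for ribosomal proteins themselves, are recovered with the antibody.

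The RefSeq promoter table (GRCm38.p6) held start sites for 61 of the 82 genes. A C followed by at least 6 C or T, beginning within 15 bases of an annotated start on the transcribed strand, was present in 32 of these 61 genes (52.5%) and in 3494 of 17492 protein-coding genes (20.0%). The lines below show the 41 bases around the start, 20 before it and 20 after it, 5′ to 3′ on the transcribed strand. Capitals mark the run from the C nearest the start that met this rule. The lines set the tagged Rpl10a and another large-subunit gene, Rpl4, beside Rps27, Rps10 and Rpl35, whose regional differences given further on are positive. Rpl38 stands for the negative side. Among the genes more negative than Rpl38, Rpl22 and Rpl5 have no run, and Rpl35a, Rps27l and Rpl28 have one at a listed site. Rpsa is shown as one without the run.
Rpl10a, first site, chr17:28328451-28328491, plus strand: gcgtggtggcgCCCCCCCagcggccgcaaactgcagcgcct
Rpl10a, second site, chr17:28328545-28328585, plus strand: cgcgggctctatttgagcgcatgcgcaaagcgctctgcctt
Rpl4, chr9:64173367-64173407, plus strand: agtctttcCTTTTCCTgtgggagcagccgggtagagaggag
Rps27, chr3:90213628-90213668, minus strand: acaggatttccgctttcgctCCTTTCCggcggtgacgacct
Rps10, chr17:27635224-27635264, minus strand: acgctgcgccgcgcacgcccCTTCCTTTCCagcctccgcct
Rpl35, chr2:39005111-39005151, minus strand: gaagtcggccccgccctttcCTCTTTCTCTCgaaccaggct
Rpl38, chr11:114668560-114668600, plus strand: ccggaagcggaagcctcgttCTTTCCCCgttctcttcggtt
Rpsa, chr9:120127746-120127786, plus strand: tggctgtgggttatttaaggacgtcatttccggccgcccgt
In Rps27, Rps10, Rpl35 and Rpl38 the capitals begin at the annotated start. C or T also stands directly before them there, so the unbroken pyrimidine stretch begins earlier. In Rpl10a and Rpl4 the run in capitals lies before the start, and the second site of Rpl10a has none. CCGGAAG, the sequence bound by ETS factors, searched on both strands of the whole 300-base window, was in 25 of 61 genes (41%) against 12.9% of all genes. TATAAA on the transcribed strand was in 5 of 61 (8.20%) against 9.82%. These are matches of letters in a window, not measured start or binding sites.

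Rpl10a, a protein of the mobile L1 stalk next to the site where tRNA leaves the ribosome, lies on chr17:28328471-28331033 and is the gene whose product is tagged. Its dorsal libraries held 194, 210, 145 and 227 CPM (gene counts relative to TMM-scaled library size), 194 ± 35.3 (SD, n = 4). Its accumbens libraries held 205, 220, 228 and 171 CPM, 206 ± 25.2 (SD, n = 4). The regions overlapped throughout, with dorsal striatum 3 the lowest of the 8. The log2 fold change, given here and below as accumbens over dorsal striatum with its standard error, was 0.09 ± 0.15 (95% interval -0.24 to 0.41, adjusted p = 0.868, edgeR quasi-likelihood test over all genes). It was -0.03 without dorsal striatum 3. The transgene carries the Rpl10a coding sequence, so transcripts of the transgene and of the endogenous gene cannot be told apart in these counts. Exons of Rpl10a also overlap CT025652.2 on the opposite strand, and the strand setting of the counting was not given in the sources used here.

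Per kilobase of annotated transcript, Rpl10a averaged 274 CPM and ranked 2 of 77 tested ribosomal protein genes. Its level was 4.44 to 6.30 times the median of the 77 in the same library, with dorsal libraries at 5.44 ± 0.672 and accumbens libraries at 4.85 ± 0.538 (SD, n = 4 each). Its rank was 1 with the longest principal transcript and 3 of 76 per kilobase of coding sequence. By library it ranked first in dorsal striatum 3 and second in the other 7 libraries. Rpl4, which lines the exit tunnel, held 247, 282, 248 and 262 CPM in dorsal striatum, against 331, 296, 256 and 275 CPM in accumbens. These are 260 ± 16.5 and 290 ± 32.1 CPM (SD, n = 4), with overlapping ranges and a log2 fold change of 0.16 ± 0.13 (edgeR adjusted p = 0.644). Rpl4 ranked 3 per kilobase, at 179 CPM. Of the transcript's 50-base windows, 88.1% in Rpl10a and 16.5% in Rpl4 also occur in another annotated transcript. Reads that fit several places were not counted, and the effect of this on the levels was not tested.

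The 77 genes spanned a 50.9-fold range per kilobase, from 6.52 to 332 CPM with a median of 55.4. Rpl41, the shortest ribosomal protein, was highest at 332 CPM per kilobase. After Rpl10a and Rpl4 came Rps15 at 167, Rpl31 at 152 and Rps27 at 125 CPM per kilobase. The lowest were Rps20 at 6.52, the paralogs Rps4l at 7.90 and Rps27l at 9.74, and Rpl22 at 9.80 CPM per kilobase. The level depends on the transcript chosen: the one used for Rps20 is 3706 bases long against a median of 791, and per kilobase of coding sequence Rps20 ranked 54 of the 76 genes with an annotated coding sequence. The order was nearly the same in both regions (Spearman's rho 0.97 across the 77 genes, which share libraries and lengths).

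In the comparison between regions, 0 of 77 ribosomal protein genes passed an adjusted p under 0.05 (edgeR quasi-likelihood test), where 3.72% of all tested genes did, 1.60% higher and 2.12% lower in accumbens. The lowest adjusted p was 0.116, for Rps27. At an unadjusted p under 0.05 there were 11 genes (14.3%, against 14.8% of all genes), all 11 higher in accumbens, where the background in that direction was 7.56%. Without dorsal striatum 3 there were 5, all higher in accumbens (background in that fit and direction 6.81%), and without accumbens 1 or accumbens 3 there were 6 each, all higher (background 7.41% and 6.94%). DESeq2 called 1 gene, Rps27 (log2 fold change 0.68, adjusted p = 0.0373; background 5.84%, or 2.88% for higher), and limma-voom with sample quality weights called 0 (background 4.17%, or 1.83% for higher). Without the filter on low counts edgeR called 1, Rps25 (0.66, adjusted p = 0.0324; background 3.63%, or 1.83% for higher).

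The log2 fold change was positive in 65 of 77 genes (84.4%), against 51.8% of all tested genes. Its median was 0.24, or 1.18-fold, with values from -0.35 to 0.98, and over all tested genes the median was 0.02. The highest value belongs to the annotated pseudogene Rps4l, and the next is Rpl35 at 0.97. Without dorsal striatum 3 the median was 0.14. The large-subunit genes had 38 of 45 positive with a median of 0.22, and the small-subunit genes 27 of 32 with a median of 0.28. The 95% interval lay within a 2-fold change either way for 62 of 77 genes (80.5%), against 48.6% of all genes. For the other 15 a 2-fold difference lay within the interval. The 4 values of one region lay wholly above those of the other for 6 genes (7.79%, background 9.69%), and all 6 were higher in accumbens (background 4.51%). The plot of fold changes with their intervals shows most points to the right of 0, with intervals that mostly include 0.

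**Figure D1:**
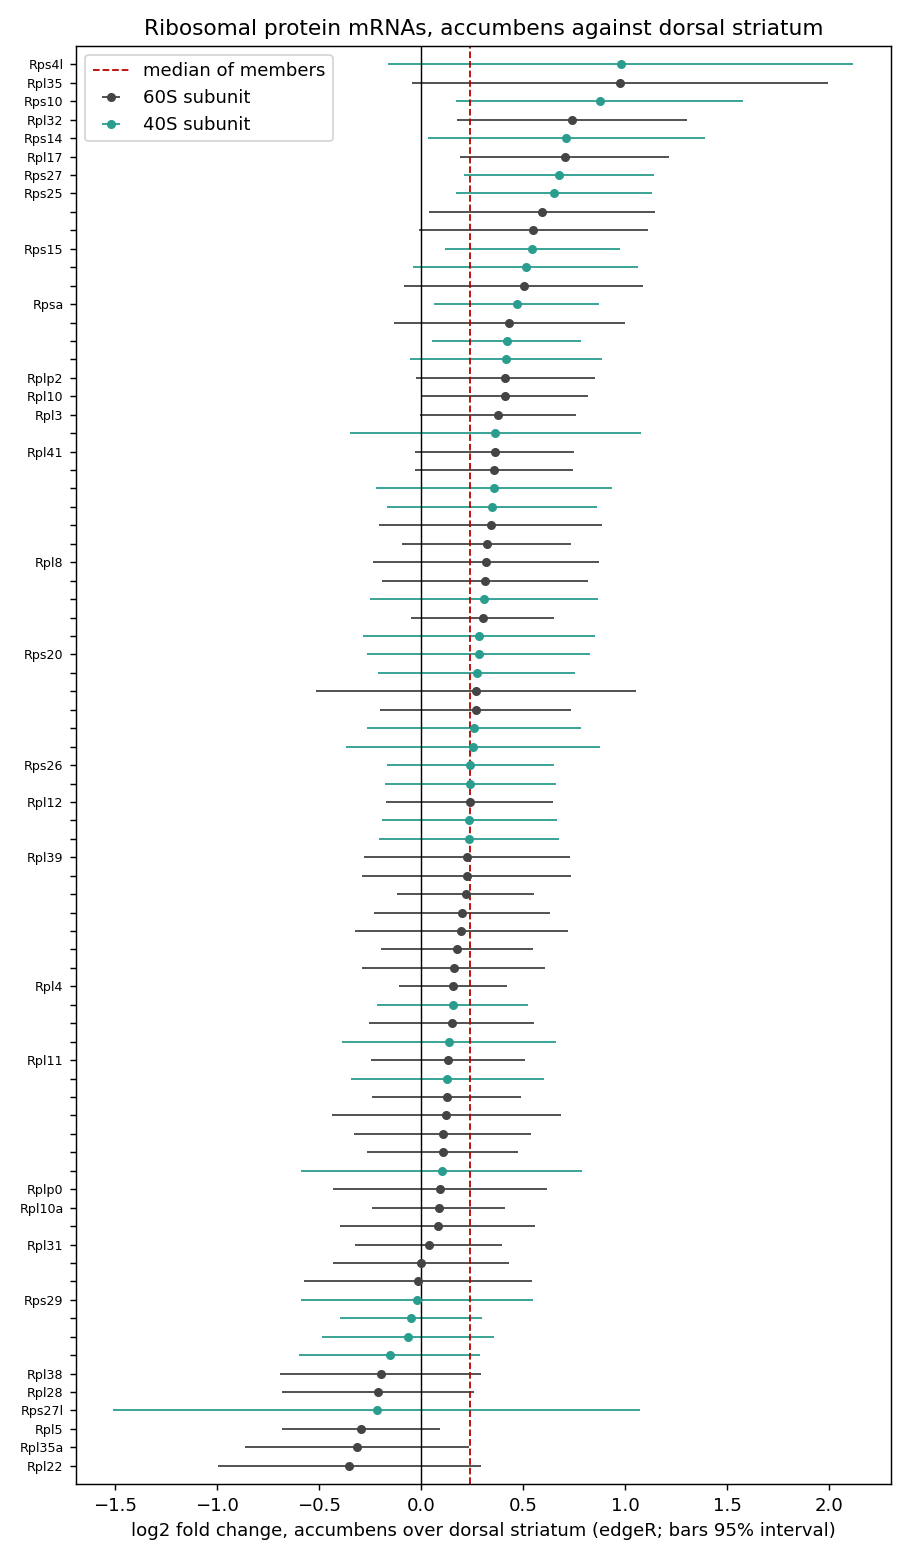
Log2 fold change (accumbens over dorsal striatum, x axis) of each of the 77 tested ribosomal protein genes, with 95% intervals from the edgeR fit, large-subunit and small-subunit genes in separate colours and genes named in the text labelled. Of the 77 points, 65 are above 0 and none was called at an adjusted p under 0.05.

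The groups by position in the ribosome given next are small, and 84.4% of all 77 genes were positive. Whether any group differs from the whole family was not tested. Among large-subunit genes, the 3 that line the exit tunnel were all positive (median 0.23). Rpl17 had the largest difference of these, with 53.8, 50.9, 27.8 and 30.9 CPM in dorsal striatum, against 85.9, 56.8, 68.8 and 54.9 CPM in accumbens. All accumbens values were higher, and the log2 fold change was 0.70 ± 0.24 (edgeR adjusted p = 0.144). Around the tunnel's rim, where the signal recognition particle and the translocon dock, 4 of 4 tested genes were positive with a median of 0.29. Rpl35 at the rim held 9.6, 9.8, 5.8 and 2.9 CPM in dorsal striatum, against 11.4, 6.0, 25.1 and 12.5 CPM in accumbens, a log2 fold change of 0.97 ± 0.48 (edgeR adjusted p = 0.366). Its ranges overlapped, and accumbens 3 stood above the other libraries. Rpl31, also at the rim, differed by 0.04 ± 0.17.

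Near the peptidyl transferase centre, where peptide bonds form, Rpl3, Rpl8 and Rpl10 were all positive with a median of 0.38. Rpl10 averaged 62.5 ± 15.5 CPM in the dorsal libraries and 83.2 ± 7.12 CPM in those of the accumbens (SD, n = 4). The P stalk, which recruits the GTPase factors, and its base had 4 of 4 positive with a median of 0.33. Rpl12 at the stalk base held 41.5, 39.1, 33.9 and 39.0 CPM in dorsal striatum, against 47.5, 45.6, 45.4 and 42.8 CPM in accumbens, which did not overlap (0.24 ± 0.19, edgeR adjusted p = 0.647). Rpl5 and Rpl11 carry the 5S RNA into the ribosome and, outside it, bind Mdm2. They went in different directions, with log2 fold changes of -0.30 ± 0.18 and 0.13 ± 0.18, and neither passed the test.

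Of the other large-subunit genes, Rpl32 had the largest difference. Its dorsal libraries held 40.9, 27.2, 14.9 and 34.4 CPM and its accumbens libraries 48.4, 42.7, 48.6 and 56.5 CPM, without overlap (0.74 ± 0.27, edgeR adjusted p = 0.167). On the negative side were Rpl22 at -0.35 ± 0.31, Rpl35a at -0.31 ± 0.26, Rpl28 at -0.21 ± 0.22 and Rpl38 at -0.20 ± 0.23, with edgeR adjusted p from 0.655 to 0.785. Rpl35a held 22.5, 23.7, 20.5 and 24.7 CPM in dorsal striatum, against 22.4, 14.5, 19.5 and 17.1 CPM in accumbens, so that its regions overlapped. Rpl38, known from mouse skeletal patterning, averaged 47.6 ± 10.8 and 41.5 ± 8.83 CPM (SD, n = 4).

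Among small-subunit genes, those of the body and platform had 7 of 8 positive with a median of 0.38. Rps27, on the platform side, held 42.0, 38.7, 23.1 and 28.9 CPM in dorsal striatum, against 54.1, 53.7, 52.6 and 51.7 CPM in accumbens. All 4 accumbens values lay close together and above every dorsal value, with means of 33.2 ± 8.73 and 53.0 ± 1.08 CPM (SD, n = 4) and a log2 fold change of 0.68 ± 0.22. Of its transcript's 50-base windows, 98.6% also occur in another annotated transcript, the most of all 77 genes. Rpsa, which sits on the solvent side of the small subunit, held 61.9, 66.0, 45.7 and 42.1 CPM and then 78.2, 72.8, 80.2 and 67.3 CPM (0.47 ± 0.19, edgeR adjusted p = 0.235). Rps26, which contacts the message near the exit of its channel, held 42.2, 36.5, 40.3 and 34.9 CPM against 42.6, 46.7, 45.2 and 47.4 CPM. Both genes separated the regions, Rps26 by a margin of less than 1 CPM (0.24 ± 0.19, edgeR adjusted p = 0.643). Rps14, a platform protein whose loss is known from a human anaemia, held 11.8, 14.5, 10.5 and 16.7 CPM, then 22.8, 13.1, 32.7 and 19.2 CPM, with accumbens 2 inside the dorsal range (0.71 ± 0.32, edgeR adjusted p = 0.302).

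The small-subunit head, which holds the decoding tRNAs, had 10 of 13 positive with a median of 0.28. Rps10 held 20.0, 16.3, 6.5 and 12.6 CPM in dorsal striatum, against 25.7, 31.4, 27.0 and 17.9 CPM in accumbens. Dorsal striatum 1 exceeded accumbens 4, so the regions overlapped, and the log2 fold change was 0.88 ± 0.33 (edgeR adjusted p = 0.196). Rps25, which many viral internal entry sites require, held 107.6, 101.4, 47.0 and 57.0 CPM and then 129.5, 104.0, 128.0 and 130.8 CPM (0.65 ± 0.23, edgeR adjusted p = 0.148). The regions overlapped, since dorsal striatum 1 exceeded accumbens 2, and its exons overlap those of Ccdc84 and Trappc4. Rps15 averaged 68.0 ± 16.9 and 99.2 ± 19.0 CPM (SD, n = 4; 0.54 ± 0.20, edgeR adjusted p = 0.183). Rps29 of the head differed by -0.02 ± 0.27. In the plot of single libraries, dorsal striatum 3 is the lowest of the 8 points for Rpl10a, Rps27, Rpl17, Rpl32, Rpl12 and Rpl22.

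**Figure D2:**
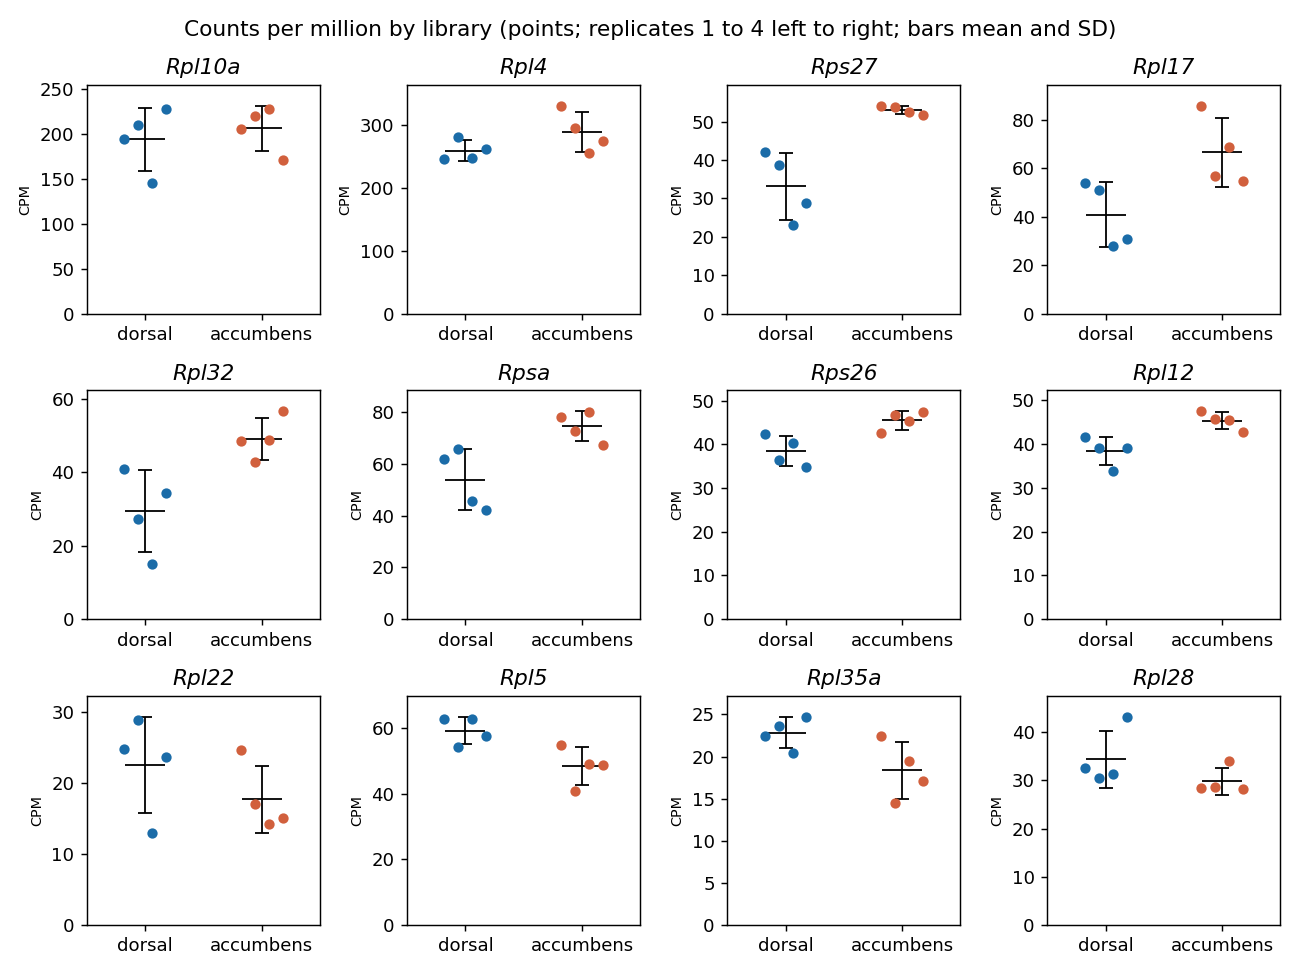
CPM of named ribosomal protein genes in each library (points), with mean and SD of each region (n = 4), 1 panel a gene, y axes from 0. Rps27 shows 4 accumbens points between 51.7 and 54.1 CPM above dorsal points from 23.1 to 42.0 CPM, while the Rpl10a points of the 2 regions overlap.

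One library stood apart for this family. Dorsal striatum 3 was the lowest of the 8 for 47 of 77 ribosomal protein genes (61.0%), against 18.2% of all tested genes. The median deviation of the 77 genes from their own mean log2 CPM was -0.48 in that library, 0.06, 0.04 and -0.09 in dorsal striatum 1, 2 and 4, and 0.26, 0.01, 0.23 and 0.01 in accumbens 1 to 4. Over all genes the same deviation lay between -0.004 and 0.04. Accumbens 1 and accumbens 3 were the highest libraries for 23 and 22 of the genes, where they were highest for 8.86% and 13.9% of all tested genes. Without dorsal striatum 3, 62 of 77 log2 fold changes were positive (52.2% of all genes), with a lowest edgeR adjusted p of 0.275.

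The 82 genes together took 0.419%, 0.420%, 0.30% and 0.378% of all gene counts in the dorsal libraries and 0.508%, 0.414%, 0.482% and 0.449% in the accumbens libraries. The means were 0.379 ± 0.0563% and 0.463 ± 0.0408% (SD, n = 4). Accumbens 2 lay below dorsal striatum 1 and 2, so the shares overlapped. With Rn45s, Lars2 and AK140265 left out of the total, a step added after seeing the data, the shares no longer overlapped. They were 0.309% to 0.4471% in dorsal libraries and 0.4481% to 0.552% in accumbens libraries, nearly touching at dorsal striatum 1 and accumbens 2. Rn45s, the ribosomal RNA precursor, took 3.58 ± 1.79% and 6.11 ± 0.464% of gene counts (SD, n = 4). The plot by library shows both measures.

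**Figure D3:**
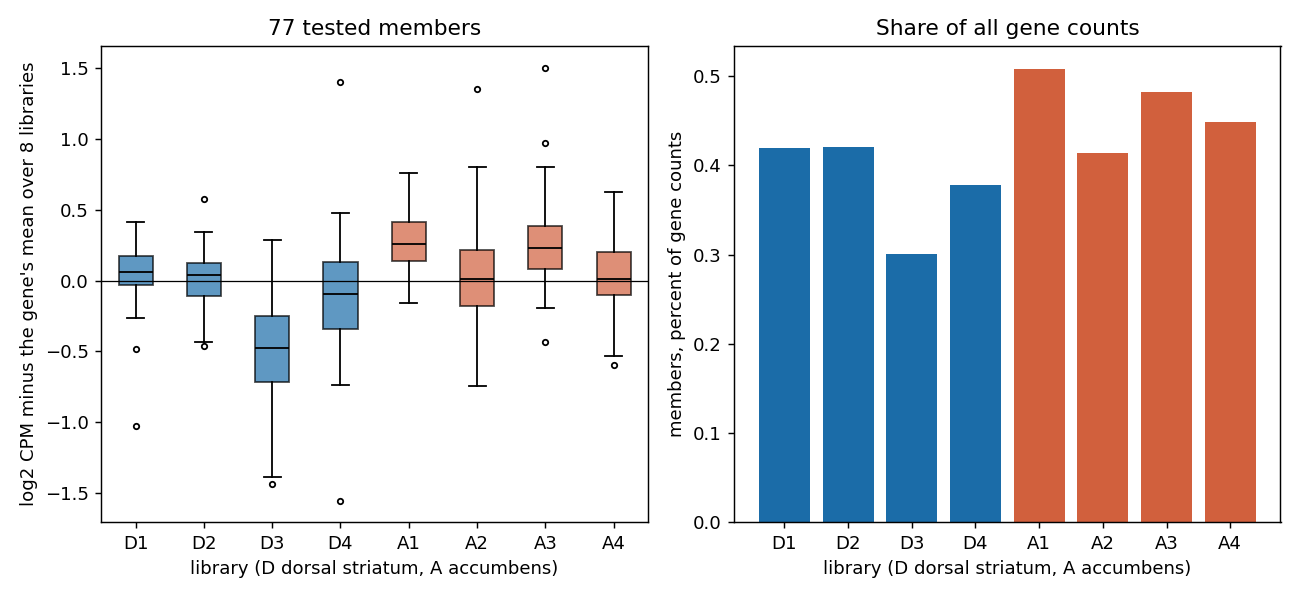
Left, box plots of log2 CPM minus each gene's mean over 8 libraries, for 77 ribosomal protein genes in each library. Right, the percent of gene counts taken by the 82 genes. Dorsal striatum 3 (D3) is lowest in both, with a median deviation of -0.48 and a share of 0.30%.

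Library properties and markers of other cells are given here by region. Gene counts ran from 7466970 to 10363145 in dorsal striatum, lowest in dorsal striatum 3, and from 10831937 to 12639641 in accumbens. Reads aligned to more than 1 place, which were not assigned to genes, made up 12.9 ± 2.33% and 17.3 ± 2.09% of counted reads (SD, n = 4). The D1 neuron markers, Drd1 among them and with all 9 present, summed to 2322 to 2658 CPM in dorsal striatum and 1981 to 2247 CPM in accumbens. The 8 D2 neuron markers summed to 263 to 398 and 735 to 1026 CPM. The 10 astrocyte markers summed to 200 to 376 and 262 to 705 CPM, the 10 oligodendrocyte markers to 127 to 205 and 132 to 339 CPM, and the 10 microglia markers, with C1qa at 0, to 0.985 to 4.46 and 4.88 to 19.9 CPM. The 9 endothelial markers summed to 8.16 to 91.9 and 7.76 to 216 CPM, and the 9 interneuron markers to 36.7 to 138 and 74.0 to 166 CPM. For the 7 oligodendrocyte precursor markers the sums were 7.69 to 18.4 and 13.7 to 18.4 CPM. For the 9 mural and fibroblast markers they were 2.48 to 35.4 and 3.16 to 64.3 CPM. The 9 ependymal and neuroblast markers, with Tmem212 at 0, summed to 40.8 to 78.4 and 79.0 to 136 CPM. The D1 sums, lower in accumbens, did not overlap between regions. Neither did the D2, microglia and ependymal and neuroblast sums, higher in accumbens, though the microglia and ependymal and neuroblast sums separated only narrowly. A sum weighs its most abundant genes most. Of the 9 D1 markers edgeR called 1 higher and 2 lower in accumbens, so they did not all go one way. Of the 8 D2 markers it called 4 higher and 0 lower (background 1.60% higher, 2.12% lower). With an index of glial markers as a covariate the ribosomal protein genes had a median of 0.21 with 66 positive, and 3 were at an unadjusted p under 0.05, all higher in accumbens (background in that fit and direction 4.94%). The part of the other properties in the difference was not tested, and fewer cells of a type and less RNA per cell cannot be told apart in such samples.

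The 5 genes that were not tested were near or at 0. Rpl26, at the exit tunnel's rim, Rpl36al and Rpl10l, a testis paralog of Rpl10, had no count in any of the 8 libraries, below the 3-count floor of 0.237 to 0.415 CPM. Rpl39l, a paralog of Rpl39, had 6 counts in dorsal striatum 2 alone, and Rpl3l, the muscle paralog of Rpl3, had 6 in dorsal striatum 1 and 4 in accumbens 1. Rpl26 is a core protein, and a count of 0 here says only that no read was assigned to that symbol. Of the paralogs that were tested, Rps4l, annotated as a transcribed processed pseudogene, held 5.0, 4.0, 1.9 and 5.8 CPM and then 6.0, 14, 9.5 and 3.6 CPM (0.98 ± 0.54, edgeR adjusted p = 0.433). Rps27l, a p53 target, differed by -0.22 ± 0.61, with an interval that includes a 2-fold change in either direction. The related Rpl22l1, Rpl7l1 and Rps3a1, whose symbols the rule did not take, were all positive, from 0.07 to 0.60. Of these, 0 of 3 were called by edgeR, DESeq2 or limma-voom (background 3.72%, 5.84% and 4.17%), with 0 at an unadjusted p under 0.05 in edgeR (background 14.8%).

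Ribosomal protein genes have many processed pseudogenes, and a read that fits several copies is not counted. Across the 77 genes a median of 49.0% of the 50-base windows of the transcript also occurred in a transcript of another locus, up to 98.6% in Rps27, and with 100-base windows the median was 32.9%. The 37 genes with at least 50% of their windows shared had a median level of 61.4 CPM per kilobase, and the 40 others 47.5. Their median log2 fold changes were 0.25 and 0.24. Across genes Spearman's rho of the shared percentage was 0.33 with level and -0.004 with log2 fold change (n = 77, same libraries). The plot of level against shared windows has Rps27 at the right edge and still among the 6 highest genes. Copies without an annotated transcript were not counted as sharing.

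**Figure D4:**
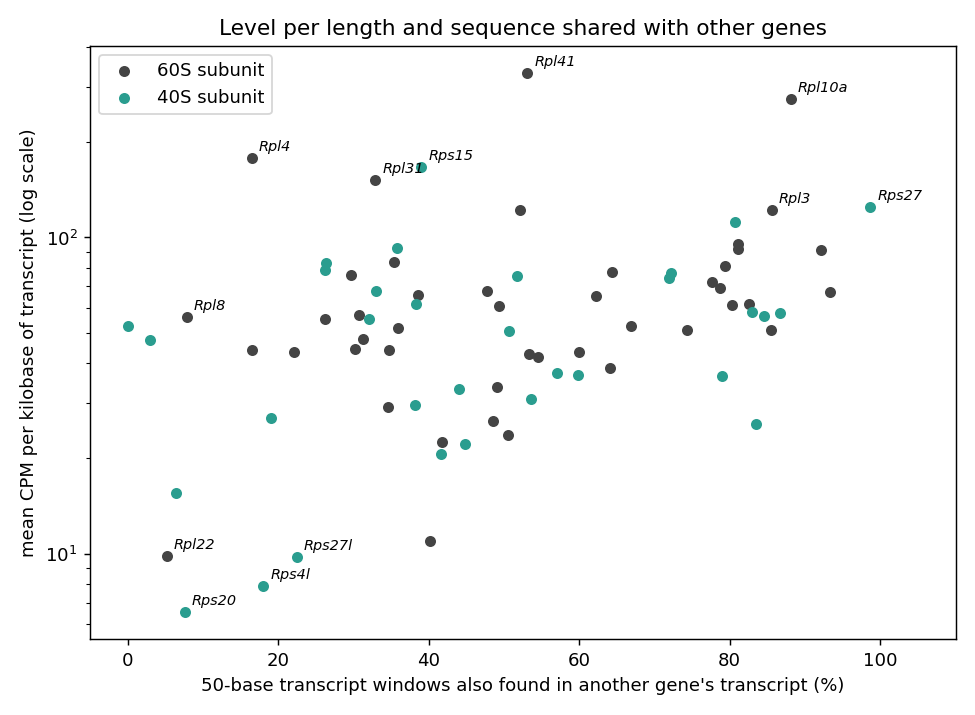
Mean CPM per kilobase of transcript (log y axis) against the percent of 50-base transcript windows also present in another annotated transcript (x axis), 1 point for each of 77 genes. Rpl41 is highest at 332, and Rps27, with 98.6% of windows shared, is at 125.

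Exon overlap with a second gene was annotated for 21 tested genes, and for 18 the second gene is on the opposite strand. The genes described above that have such an overlap are Rpl10a, Rpl5, Rpl12, Rpl28, Rpl31, Rpl32, Rpl35, Rps25 and Rps10, the last on both strands. The 56 tested genes without an overlap had a median log2 fold change of 0.24, with 46 positive. Small nucleolar RNAs, which guide modification of ribosomal RNA, are annotated inside 29 of the 77 genes, 56 of them in all, and 27 of these 29 hosts were positive with a median of 0.28. Of the 48 other genes 38 were positive, with a median of 0.24. Among genes with a listed start, the 31 tested with a pyrimidine run and the 25 without it had medians of 0.23 and 0.24.

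Neighbouring groups of genes were read from the same fit. Of all tested genes edgeR called 3.72%, and 14.8% were at an unadjusted p under 0.05. Of the mitochondrial ribosomal proteins, which serve the organelle's own ribosome, 39 of 74 tested were positive with a median of 0.03, and 0 were called by edgeR, with 1 at an unadjusted p under 0.05, Mrpl38 (0.83 ± 0.32, adjusted p = 0.201). DESeq2 and limma-voom also called 0 (background 5.84% and 4.17%). The most abundant was Mrpl30, at 46.7 ± 9.90 and 56.0 ± 12 CPM (SD, n = 4; 0.26 ± 0.22). Of 21 translation factors and other ribosome-associated genes, many of them with TOP messages, 18 were positive with a median of 0.13. One was called higher in accumbens (background 1.60%): Eef1a1, the factor that delivers aminoacyl-tRNA. It held 483, 480, 320 and 337 CPM in dorsal striatum, against 631, 614, 580 and 554 CPM in accumbens, a log2 fold change of 0.55 ± 0.14 (edgeR adjusted p = 0.0384). Eef1a1 was no longer called after leaving out dorsal striatum 3, dorsal striatum 4 or any 1 accumbens library, with edgeR adjusted p from 0.0555 to 0.132, nor with the glial covariate (adjusted p = 0.490). Eef2, which moves the ribosome along the message, differed by 0.36 ± 0.14 (edgeR adjusted p = 0.196). The most abundant of the list was the nucleolar chaperone Npm1, at 513 ± 23.1 and 552 ± 28.5 CPM (SD, n = 4; 0.10 ± 0.11).

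Of 33 ribosome biogenesis genes, 20 were positive with a median of 0.10. None was called by edgeR, DESeq2 or limma-voom (background 3.72%, 5.84% and 4.17%). The 1 at an unadjusted p under 0.05 in edgeR (background 14.8%) was Sbds, which helps release an anti-association factor from new large subunits. It was lower in accumbens, at 69.3 ± 4.31 and 49.6 ± 9.95 CPM (SD, n = 4; -0.48 ± 0.19, edgeR adjusted p = 0.213). Nucleolin (Ncl) was the most abundant, at 790 ± 82.4 and 666 ± 61.6 CPM (-0.25 ± 0.12, edgeR adjusted p = 0.343). Whether the cytosolic set differs from these groups was not tested.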

How the data were processed

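The authors deposited raw read counts by gene symbol in 1 table per library. Per the submitters' processing notes, STAR 2.0.0e aligned the reads to mm10 and HTSeq counted them. Which annotation, strand setting and filters they used is not given in the sources used here. Rows without a gene, 6 per library, held 27.1% to 40.6% of counted reads and were left out. Counts went into edgeR 4.0.16 (R 4.3.3): TMM scaling, filterByExpr at a minimum count of 10, and its quasi-likelihood test with region alone, with Benjamini-Hochberg adjustment over 12467 genes, and the code was tested on simulated counts. CPM use TMM-scaled sizes, with a prior count of 2 where logged.

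Transcripts, windows and overlaps come from GENCODE M21 (GRCm38, 1-based), where all 82 genes matched by symbol. The transcript was the APPRIS principal one, with a curated RefSeq match and best support preferred, then the shortest. A count of 3 is the floor used, and it covers counting error only.

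Members, roles and lists were chosen with earlier results of these data known. Named genes were Rpl10a, Rpl4, genes called or not overlapping, the 6 largest differences each way, the 6 highest and 4 lowest per kilobase, and paralogs. For related lists they were called genes and the most abundant one. Rps25, Rpl3, Rpl8, Rpl10, Rpl11, Rps29, Eef2, Mrpl38 and Sbds were named after their values were seen. Some genes of the family are not reported here by name. Alternatives were other normalizations and filters, DESeq2 1.42.0, limma-voom (limma 3.58.1), a replicate block, a glial covariate and each library left out. Added after seeing the data were thinning, leaving out Rn45s, Lars2 and AK140265, and leaving out dorsal striatum 3 and accumbens 2 together. Also added were the subset with under 50% of 50-base windows shared and the subset without overlapping exons.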

Additional observations from a re-analysis of the deposited data

Results flagged for a closer look

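Among 48 groups of 4 values checked for a library far from the other 3, by Dixon's criterion (the gap to the nearest value over the range), 3 were found, where chance gives about 1 in 20. Rps27l in accumbens had a ratio of 0.845, with 3.75, 3.97 and 4.13 CPM and 6.16 CPM in accumbens 3. Rpl28 had a high library in both regions: 43.3 CPM in dorsal striatum 4 above 30.5 to 32.7 CPM (ratio 0.834), and 34.0 CPM in accumbens 3 above 28.1 to 28.7 CPM (ratio 0.912). Exons of Rpl28 overlap Ube2s.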

How the results depend on the processing

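The median log2 fold change of the ribosomal protein genes stayed between 0.14 and 0.28, with 61 to 69 of 77 positive, with each library left out, and 0 were called in each of those fits. All genes called numbered 324 to 411 there (139 to 191 higher, 184 to 236 lower), the translation factor list had 0 to 1 called, and the shares of counts were 0.366% to 0.406% in dorsal striatum and 0.448% to 0.480% in accumbens. DESeq2 called 795 genes (392 higher, 403 lower) and 1 ribosomal protein gene. Without the filter 350 genes were called higher, with 1 ribosomal protein gene. The glial covariate left 186 calls (80 higher, 106 lower) and 0 called translation factors. Leaving out dorsal striatum 3 and accumbens 2 together also gave 0 called translation factors. The cause of these changes was not tested. Some uncalled genes changed sign. In the main fit Rpl31 and Rpl10a were near 0, at 0.04 and 0.09. Rps27l at -0.22 and Rpl28 at -0.21 were among the 6 most negative genes, and Rps27l had a standard error of 0.61. Rps27l was 0.23 with limma-voom, 0.098 with the replicate block, 0.52 with the covariate and 0.54 without dorsal striatum 4. Rpl28 was 0.025 with the covariate. Rpl31 was -0.048 with limma-voom, -0.13 with the covariate, -0.11 without dorsal striatum 3, -0.0083 without dorsal striatum 4, -0.0028 without accumbens 1 and -0.10 without both libraries. Rpl10a was -0.029 without dorsal striatum 3 and -0.062 without both. With each library left out Rps27l ran from -0.48 to 0.54, Rpl31 from -0.11 to 0.15 and Rpl10a from -0.029 to 0.17. With the replicate block the median was 0.25, with 68 positive and a lowest adjusted p of 0.0944. Same-numbered libraries did not deviate together (r from -0.08 to 0.01). Noise between libraries could hide a shared animal, so this cannot decide whether the numbers pair them, and the labels do not say. Windows unique in the genome were not run, since no genome was used here. The subset with under 50% of its 50-base windows shared with other annotated transcripts took their place. Only 1 of the 77 genes had no shared window, so that subset still holds shared sequence. For 15 of 77 genes the interval reaches beyond a 2-fold change, which limits what can be said of them.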
